A study of Homo sapiens with 10 samples.

Results

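The 5 genes described here, MCL1 (ENSG00000143384), BCL2 (ENSG00000171791), BCL2L1 (ENSG00000171552), BCL2L2 (ENSG00000129473) and BCL2A1 (ENSG00000140379), encode anti-apoptotic proteins of the BCL2 family. They were found by Ensembl gene identifier among the 58229 genes of the deposited table, and each had a value in all 10 libraries. BCL2 family proteins meet at the outer mitochondrial membrane. The anti-apoptotic members hold the pore-forming proteins BAX and BAK1 and the BH3-only activators, and release of those partners lets cytochrome c leak out and activate caspases. Plasma cells, normal and malignant, are known for their need of MCL1, and drugs that mimic a BH3 domain are directed at BCL2, at BCL-XL, which is made from BCL2L1, and at MCL1.

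The series measured poly(A) RNA in the multiple myeloma cell lines H929 and OCI, with 5 libraries for each line. Each line gave 1 library of wild-type cells, 2 of cells with AIMP1 knockdown, numbered 1 and 2, 1 of cells overexpressing AIMP1, and 1 of wild-type cells treated with AIMP1 protein. AIMP1 helps hold the multi-tRNA synthetase complex together and can act outside the cell when secreted. Which OCI line this is, the labels leave unsaid, as they do how the knockdown or overexpression was made. They also leave unsaid which dose or time of protein was given, and whether libraries came from separate cultures. The p-values thus measure a spread between libraries that may be technical. Fits with 1 effect for both lines also count differing responses of the lines in that spread.

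AIMP1 itself stood at 14.5 FPKM (fragments scaled by transcript length and library total) in H929 and 14.3 FPKM in OCI wild type. It was at 62.5 and 59.7 FPKM in the overexpressing libraries. Knockdown libraries held 3.55 FPKM in H929 knockdown 2, 5.03 FPKM in OCI knockdown 1 and 2.35 FPKM in OCI knockdown 2, but the library labelled H929 knockdown 1 stood at 14.2 FPKM, 98.2% of its wild type, and so went against its label. Depth relative to OCI wild type, estimated from the spacing of low values, was 27.5% to 41.8% in the H929 libraries and 27.7% to 73.2% in the other OCI libraries. H929 protein stood apart, with the lowest depth, the fewest genes above 0 (17708) and a median log2(FPKM + 1) of tested genes 0.19 above the mean over libraries. Of 12 plasma cell markers, 9 to 11 were at or above 1 FPKM in each library and the list summed to between 2912 and 4316 FPKM, which matches the labelled cell type. Of these markers, FCRL5 did not pass 0.549 FPKM in any library and SLAMF7 did not pass 0.990 FPKM in H929. TNFRSF13B did not pass 0.178 FPKM in H929 and passed 1 FPKM in OCI only in overexpression, at 1.43 FPKM. The 9 stromal and endothelial markers other than VIM, which the myeloma cells also expressed, summed to at most 1.84 FPKM in H929. In OCI they summed to 0.187 FPKM in wild type, 4.51 and 4.56 in knockdowns 1 and 2, 2.42 in overexpression and 5.31 in protein. COL1A1 was above 0 in all libraries and highest in OCI knockdown 2, at 3.91 FPKM. DCN, LUM, COL3A1 and the myeloid markers S100A8 and S100A9 were above 0 only in OCI knockdown 1 and OCI protein, with S100A9 at 3.39 and 6.22 FPKM. The 10 myeloid markers summed to 9.77 and 16.8 FPKM in these libraries and to between 1.19 and 8.56 FPKM in the others. T and NK cell markers reached 12.1 FPKM in OCI protein and 19.9 FPKM in the library labelled H929 knockdown 1, where GNLY alone stood at 18.1 FPKM. Their part in the results was not tested, and values without OCI knockdown 1 and OCI protein are given for the main results.

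MCL1 was the most abundant of the 5 transcripts in every library and BCL2A1 the least. Because FPKM accounts for length, levels of different genes can be set side by side on that scale. MCL1, whose short-lived protein binds BAK1 and the BH3-only protein NOXA, stood at 137 FPKM in H929 wild type, 129 in the library labelled H929 knockdown 1, 167 in H929 knockdown 2, 173 in H929 overexpression and 222 in H929 protein. In OCI it stood at 119 FPKM in wild type, 143 and 165 in knockdowns 1 and 2, 149 in overexpression and 204 in protein. The protein-treated library was the highest of its line both times, and the ranges of the lines overlapped almost entirely. Among protein-coding genes above 0, MCL1 lay between percentiles 94.2 and 96.8 of its library.

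BCL2, the founding member and the target of venetoclax, was at 7.14 FPKM in H929 wild type, 7.97 and 6.42 in the libraries labelled knockdown 1 and 2, 13.5 in overexpression and 12.7 in protein. In OCI it was at 4.83 FPKM in wild type, 17.7 and 33.0 in knockdowns 1 and 2, 15.9 in overexpression and 34.5 in protein. OCI wild type was thus the lowest of all 10 libraries, while the other 4 OCI libraries were above every H929 library. BCL2 spanned 7.15-fold from lowest to highest library, against 1.86-fold for MCL1, 2.55-fold for BCL2L1 and 2.26-fold for BCL2L2.

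BCL2L1, which encodes BCL-XL and, by alternative splicing, the short pro-apoptotic form BCL-XS, was at 17.04 FPKM in H929 wild type, 19.0 and 20.8 in the libraries labelled knockdown 1 and 2, 13.2 in overexpression and 13.7 in protein. Its OCI values were 18.8 FPKM in wild type, 18.9 and 21.6 in knockdowns 1 and 2, 26.2 in overexpression and 33.7 in protein. The gene-level values do not separate the splice forms. Overexpression and protein gave the lowest libraries of H929 and the highest of OCI.

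BCL2L2, which encodes BCL-W, was at 5.77 FPKM in H929 wild type, 4.70 and 5.13 in the libraries labelled knockdown 1 and 2, 4.80 in overexpression and 6.68 in protein. OCI had 4.57 FPKM in wild type, 2.95 and 5.14 in knockdowns 1 and 2, 3.14 in overexpression and 4.27 in protein. The lines overlapped, and 4 of 5 OCI libraries lay below all H929 libraries. BCL2L2 shares exons with the readthrough gene BCL2L2-PABPN1, and how fragments of shared exons were assigned is unknown here.

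BCL2A1, a target of NF-kB known from activated B cells, did not pass 0.492 FPKM in any library. H929 had 0.264 FPKM in wild type, 0.175 and 0.492 in the libraries labelled knockdown 1 and 2, and 0.410 in overexpression, and the gene was listed at 0 in H929 protein. In OCI it was listed at 0 in wild type, knockdown 1 and overexpression and stood at 0.114 FPKM in knockdown 2 and 0.274 FPKM in protein. Such values are near the lower end of what these libraries register, and a value of 0 can be a failed estimate. BCL2A1 had a mean of 0.173 FPKM, below the 1 FPKM needed for testing, so 4 of the 5 members were tested.

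**Figure D1:**
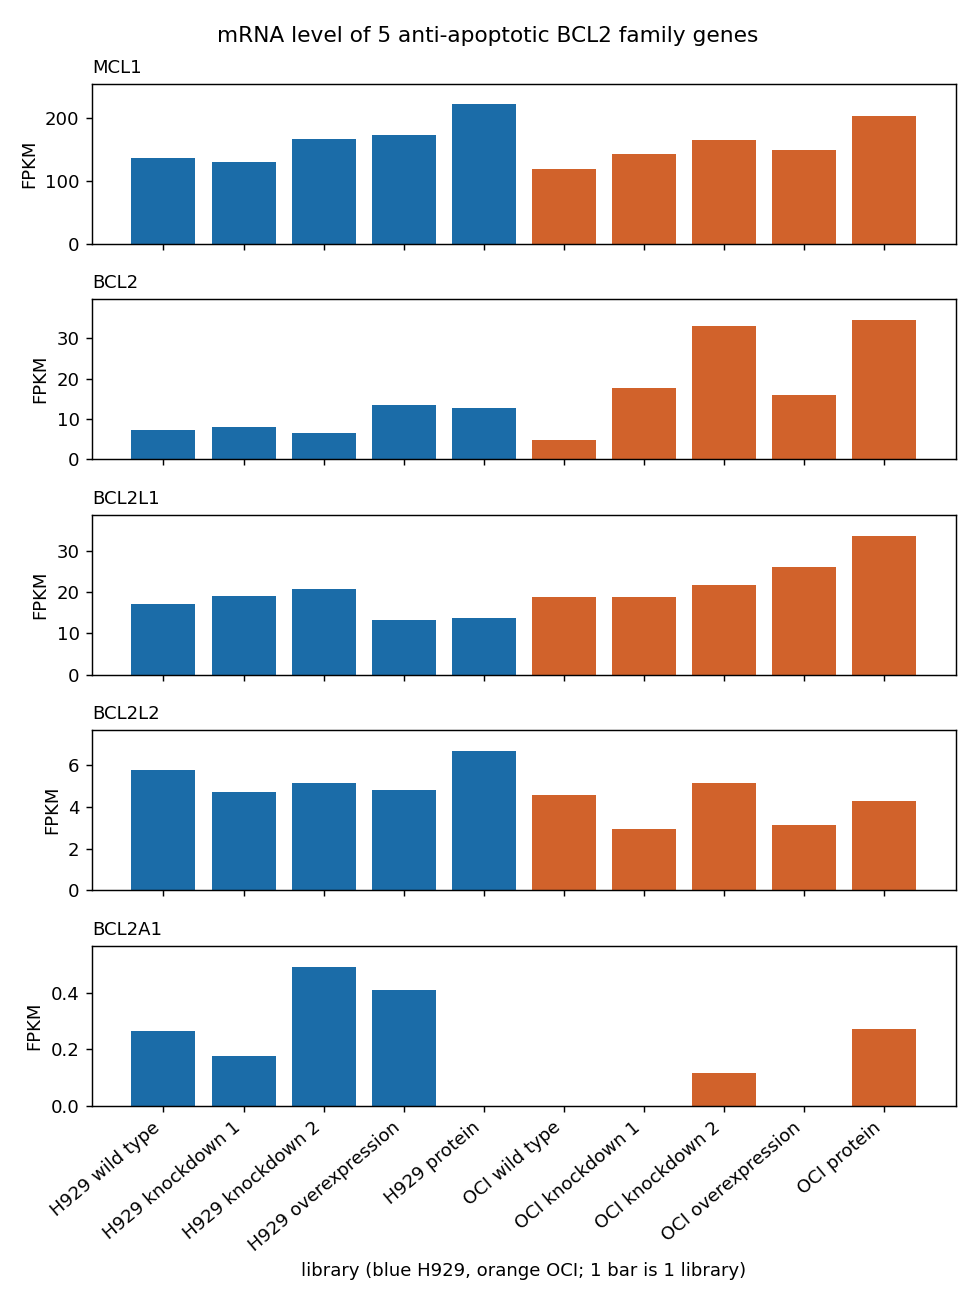
Level in FPKM (vertical axes from 0, each gene on its own scale) of the 5 anti-apoptotic genes in each of the 10 libraries, with 1 bar per library and no error bar because a bar is a single library. MCL1 lies between 119 and 222 FPKM in all libraries, and BCL2 lies between 4.83 and 34.5 FPKM with OCI wild type lowest.

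The order of the members was nearly fixed. MCL1 led in 10 of 10 libraries, BCL2L1 and BCL2 followed, BCL2L2 lay below both in every library, and BCL2A1 came last. BCL2L1 and BCL2 were the only neighbours to change places: BCL2 was above BCL2L1 in 1 of 5 H929 libraries, overexpression, and in 2 of 5 OCI libraries, knockdown 2 and protein. Line means ± SD (n = 5, over different manipulations) were 9.53 ± 3.28 FPKM for BCL2 and 16.8 ± 3.30 FPKM for BCL2L1 in H929. In OCI they were 21.2 ± 12.5 FPKM for BCL2 and 23.8 ± 6.27 FPKM for BCL2L1, a difference well inside their spread. The summed level of the 5 genes ran from 148 FPKM in OCI wild type to 277 FPKM in OCI protein, with H929 protein second at 255 FPKM.

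Of the members, 3 have a promoter in the RefSeq table used here, and the sequences of BCL2 and BCL2L1, whose levels spread most over the libraries, show how unlike the regions before these genes are. The 250 bases before the RefSeq start (GRCh38.p14, minus strand, written 5′ to 3′) lie at chr18:63319770-63320019 for BCL2 and chr20:31723964-31724213 for BCL2L1. G and C made up 70% of the first and 50% of the second, and 38.8% of the same window before BCL2A1. No capitals are used because no motif searched was found in these 2 windows.
BCL2: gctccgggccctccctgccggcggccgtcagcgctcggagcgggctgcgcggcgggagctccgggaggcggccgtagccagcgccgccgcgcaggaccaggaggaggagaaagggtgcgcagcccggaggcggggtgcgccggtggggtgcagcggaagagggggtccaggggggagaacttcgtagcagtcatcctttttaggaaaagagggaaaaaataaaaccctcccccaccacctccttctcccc
BCL2L1: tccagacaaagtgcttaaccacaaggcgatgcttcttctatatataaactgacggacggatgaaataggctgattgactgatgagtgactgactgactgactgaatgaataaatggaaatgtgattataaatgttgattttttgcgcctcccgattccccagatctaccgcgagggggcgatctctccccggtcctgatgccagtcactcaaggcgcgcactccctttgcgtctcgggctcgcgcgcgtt
The motifs, searched on both strands and none part of another, were the kappaB consensus for NF-kB, TGACGTCA for the cAMP response element, TTCCNGGAA for STAT, TGATGNAAN for the ATF4 and CHOP composite element and GGGCGG for the SP1 GC box. Of 35116 windows of the same length in the RefSeq table, 1.26%, 1.65%, 0.968%, 3.13% and 42.6% held them in that order. The ATF4 and CHOP letters occurred 1 time before BCL2A1. No match says only that these letters are not in these windows.

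The comparison of protein-treated with wild-type cells asked what added AIMP1 protein changes. MCL1 was 1.62-fold of wild type in H929 and 1.71-fold in OCI, and BCL2 was 1.77-fold and 7.15-fold. BCL2L1 was below wild type in H929, at 0.804-fold, and above it in OCI, at 1.79-fold, and BCL2L2 was at 1.16-fold and 0.934-fold. In the additive limma fit the difference in log2(FPKM + 1), a scale that understates changes of low genes, was 0.73 ± 0.23 (SE) for MCL1 with a 95% interval of 0.21 to 1.25. The adjusted p over all 12872 tested genes was 0.171 by limma. For BCL2 the difference was 1.68 ± 0.53 with an interval of 0.50 to 2.86 and a limma adjusted p of 0.17. None of the 4 members was called, where 0.0155% of all genes were, though MCL1 and BCL2 had an unadjusted p under 0.05, as did 19% of all genes. In simulated data this test recovered 8% of genes changed by a log2 of 1 and 70% of those changed by 2.

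For BCL2L1 the log2 difference between protein and wild type was 0.26 ± 0.35 with an interval of -0.51 to 1.03, and for BCL2L2 0.05 ± 0.31 with an interval of -0.65 to 0.75. These intervals leave room for changes of either sign. All tested genes had a median log2 difference of 0.14 in this comparison. With each library centred on its median, MCL1 was at 0.59, BCL2 at 1.53, BCL2L1 at 0.11 and BCL2L2 at -0.09, the last with its sign turned. BCL2 rested on the single wild-type libraries: its log2 difference was 0.83 without OCI wild type and 2.53 without H929 wild type. Leaving out OCI knockdown 1 and OCI protein left MCL1 at 0.76 and BCL2 at 1.36 and turned BCL2L1 to -0.18. Without H929 protein, the library that stood apart, MCL1 was at 0.70, BCL2 at 1.99 and BCL2L1 at 0.74.

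AIMP1 knockdown was compared with wild type next. BCL2 was 3.65-fold and 6.84-fold of wild type in OCI knockdowns 1 and 2, but 1.12-fold in the library labelled H929 knockdown 1 and 0.899-fold in H929 knockdown 2, where AIMP1 was low. The fitted log2 difference over both lines, which takes in the library labelled H929 knockdown 1, was 1.06 ± 0.46 with a limma adjusted p of 0.98. MCL1 was between 0.945-fold and 1.38-fold of wild type in the 4 knockdown libraries, with a fitted log2 difference of 0.23 ± 0.20. For BCL2L1 it was 0.16 ± 0.30 and for BCL2L2 -0.19 ± 0.27. No member was called by limma and neither was any other gene (0%), and 355 genes, BCL2 among them, had an unadjusted p under 0.05. The log2 difference of BCL2 was 0.21 without OCI wild type, 1.91 without H929 wild type and 1.06 without OCI knockdown 1 and OCI protein, and that of BCL2L1 turned to -0.05 without OCI wild type.

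Overexpression of AIMP1 gave BCL2 at 1.88-fold of wild type in H929 and 3.29-fold in OCI. MCL1 was at 1.26-fold and 1.25-fold. The log2 differences were 1.18 ± 0.53 for BCL2 (limma adjusted p of 0.742), 0.33 ± 0.23 for MCL1, 0.06 ± 0.35 for BCL2L1 and -0.33 ± 0.31 for BCL2L2. BCL2L1 was again below wild type in H929, at 0.776-fold, and above it in OCI, at 1.39-fold. Here too 0% of genes were called by limma, 818 genes had an unadjusted p under 0.05, and no member was among them. BCL2 came next, at rank 819, with an unadjusted limma p of 0.05 and an interval of -4.8e-05 to 2.36. The difference of BCL2 was 0.33 without OCI wild type, 2.03 without H929 wild type and 0.78 without H929 overexpression, and that of BCL2L1 was -0.15 without OCI wild type and -0.23 without OCI overexpression.

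The comparisons with wild type share the same single wild-type library in each line, so the higher BCL2 values of the 4 manipulated OCI libraries are set against 1 low value. Protein was therefore also compared with the mean of knockdown and overexpression, which does not use wild type. MCL1 was higher by 0.45 ± 0.19 on the log2 scale with an interval of 0.02 to 0.89, a value that was close in the lines at 0.48 in H929 and 0.43 in OCI, with a limma adjusted p of 0.307. BCL2 differed by 0.56 ± 0.44, BCL2L1 by 0.15 ± 0.29 and BCL2L2 by 0.31 ± 0.26. Again 0% of genes were called by limma, and 1992 genes, MCL1 among them, had an unadjusted p under 0.05. Under quantile normalization MCL1 was at 0.14, and without OCI protein BCL2 was at 0.24 and BCL2L1 at -0.33.

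**Figure D2:**
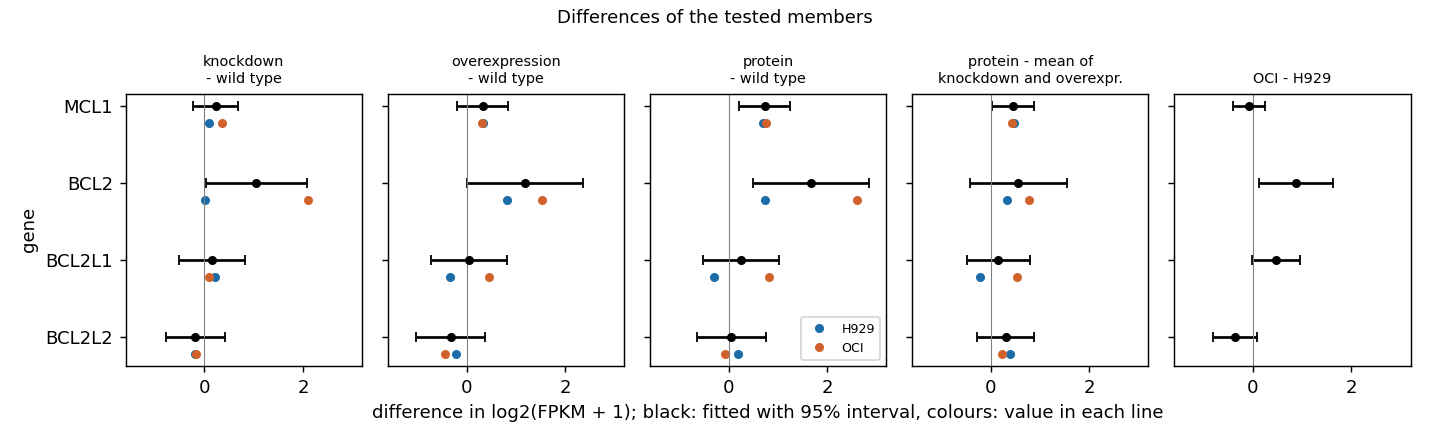
Difference in log2(FPKM + 1) (horizontal axes) for the 4 tested genes (rows) in 5 comparisons (panels). Black points with whiskers are limma estimates with 95% intervals, and coloured points are the values within H929 and OCI, such as 0.75 and 2.61 for BCL2 and 0.69 and 0.77 for MCL1 in the protein panel.

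The difference between the lines in each effect was tested with 8 group means, where only the knockdown pairs supply a spread. The H929 pair includes the library labelled H929 knockdown 1, where AIMP1 stood at 98.2% of its wild type. The knockdown difference of BCL2 was larger in OCI by 2.11 ± 0.65 on the log2 scale with an interval of 0.45 to 3.77 and a limma adjusted p of 1, where 0% of genes were called. On leaving out 1 knockdown library at a time, this difference ran from 1.67 to 2.54. For the protein difference the value was 1.86 ± 0.75 for BCL2 and 1.10 ± 0.50 for BCL2L1, with limma adjusted p of 0.714 and 0.737, where 0.101% of genes were called. The corresponding value for MCL1 was 0.07 ± 0.50 with an interval of -1.20 to 1.35. For overexpression BCL2 differed by 0.71 ± 0.75 and BCL2L1 by 0.80 ± 0.50, and 0.00777% of genes were called. No member was called in any of these comparisons, and the intervals are too wide to show that the lines responded alike. In simulated data these tests recovered 0% of genes changed by a log2 of 1 to 4. The simulated noise had the spread of the additive fit, which also counts differing responses of the lines. The 0% may thus understate what these tests can recover in the real data, where some genes were called. The lack of a call still says little.

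Levels by line, with the manipulation as a term, asked how OCI and H929 differ. BCL2 was higher in OCI by 0.88 ± 0.34 on the log2 scale with a limma adjusted p of 0.114, and BCL2L1 by 0.47 ± 0.22 with an adjusted p of 0.183 by limma. BCL2L2 differed by -0.37 ± 0.20 and MCL1 by -0.08 ± 0.15, the latter with an interval of -0.41 to 0.25. None of the 4 members was called, whereas 12.9% of all genes were, 7.6% higher and 5.28% lower in OCI. The value for BCL2L1 was 0.28 without H929 protein or OCI protein, and that for BCL2 was 0.63 without OCI knockdown 2 and 1.22 without OCI wild type. Without OCI knockdown 1 and OCI protein the values were 0.75 for BCL2, 0.37 for BCL2L1, -0.21 for BCL2L2 and -0.06 for MCL1. The lowest adjusted p of any member over all alternatives was 0.0576 by limma, for BCL2 without OCI wild type. Depth was above that of every H929 library in 4 of 5 OCI libraries, and erythroid markers, led by HBE1 in OCI overexpression, summed to between 8.92 and 132.5 FPKM in OCI and between 0.0785 and 0.638 FPKM in H929. Their part in these differences was not tested.

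Ratios within a library do not depend on how the libraries are scaled against each other. MCL1 transcripts exceeded those of BCL2 by 19.2-fold in H929 wild type, 16.2-fold and 26.0-fold in the libraries labelled knockdown 1 and 2, 12.8-fold in overexpression and 17.5-fold in protein. In OCI the ratio was 24.7 in wild type, 8.09 and 4.98 in knockdowns 1 and 2, 9.38 in overexpression and 5.90 in protein. OCI wild type fell among the H929 libraries and the other 4 OCI libraries lay below all of them. The mean log2 ratio ± SD was 4.16 ± 0.37 in H929 and 3.15 ± 0.90 in OCI (n = 5 each), with p = 0.0556 in an exact two-sided permutation test and 0.0778 after Benjamini-Hochberg adjustment over the 7 values of this family. Without OCI wild type, the difference of -1.01 became -1.38 with an adjusted exact permutation p of 0.0185. That was the only alternative to make a call. In 13 of 14 alternatives, among them leaving out OCI knockdown 1 and OCI protein, none was made, with adjusted exact p up to 0.275.

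The ratio of MCL1 to BCL2L1 was 8.03 in H929 wild type, 6.82 and 7.99 in the libraries labelled knockdown 1 and 2, 13.0 in overexpression and 16.2 in protein. In OCI it stayed between 5.70 and 7.61 in all 5 libraries. The overexpression and protein libraries of H929 thus stood above every other library. The mean log2 ratio was 3.30 ± 0.53 in H929 and 2.72 ± 0.19 in OCI, with an adjusted exact permutation p of 0.0694. Without the library labelled H929 knockdown 1, whose AIMP1 level went against its label, the difference of -0.57 became -0.71 with an adjusted exact permutation p of 0.0278. Here too 13 of 14 alternatives, among them leaving out OCI knockdown 1 and OCI protein, made no call, with adjusted exact p up to 0.219.

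BCL2L1 exceeded BCL2L2 by 2.05-fold to 4.06-fold in H929 and by 4.12-fold to 8.34-fold in OCI, without overlap between the lines. The lowest OCI library was wild type, at 4.12, and the highest H929 libraries were the knockdowns, at 4.03 and 4.06, so the gap was narrow. The mean log2 ratio was 1.62 ± 0.41 in H929 and 2.57 ± 0.49 in OCI, a difference of 0.95 with p = 0.00794, the smallest that 252 splits allow, and 0.0370 after adjustment (exact permutation test). This test takes libraries of different manipulations as the spread of a line. With line labels permuted within each manipulation the exact permutation p was 0.0417, the smallest that 48 arrangements can give, and 0.0972 after adjustment, so that test was too small to keep the call. The call was also lost on leaving out any 1 of the libraries except OCI wild type, and without OCI knockdown 1 and OCI protein the difference was 0.77 with an adjusted exact permutation p of 0.125.

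NOXA, the BH3-only protein encoded by PMAIP1, binds MCL1 and promotes its degradation. MCL1 exceeded PMAIP1 by 20.4-fold to 43.3-fold in H929 and by 12.8-fold to 20.7-fold in OCI, and only the library labelled H929 knockdown 1, at 20.4, lay within the OCI range. The mean log2 ratio was 5.08 ± 0.44 in H929 and 4.05 ± 0.25 in OCI, a difference of -1.03 with an adjusted exact permutation p of 0.0370. The ratio was lower in OCI in 5 of 5 pairs of same-labelled libraries, with knockdowns matched by number. Permuted within manipulations, it too had the smallest p that the 48 arrangements can give, with an adjusted exact permutation p of 0.0972. The call was lost in 8 of 10 cases on leaving out a library, and without OCI knockdown 1 and OCI protein the difference was -0.92 with an adjusted exact permutation p of 0.125.

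MCL1 made up 80.3% to 87.0% of the summed FPKM of the 5 genes in H929 and 73.3% to 80.9% in OCI. Its share was lower in OCI in 5 of 5 pairs of same-labelled libraries, with knockdowns matched by number. This share is given without a p-value because it is a summary over the members themselves. It still counted among the 7 values adjusted together, so the adjusted p of the ratios depend on it. Protein treatment gave the highest share in H929, at 87.0%, and with 73.7% nearly the lowest in OCI, where knockdown 2 had 73.3%. The ratios of MCL1 to BCL2L2 and of BCL2 to BCL2L1 differed between lines by 0.37 and 0.43 on the log2 scale, with adjusted exact permutation p of 0.139 and 0.444. BCL2 to BCL2L1 was 0.257 in OCI wild type and 1.53 in OCI knockdown 2, the ends of its range over all libraries.

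**Figure D3:**
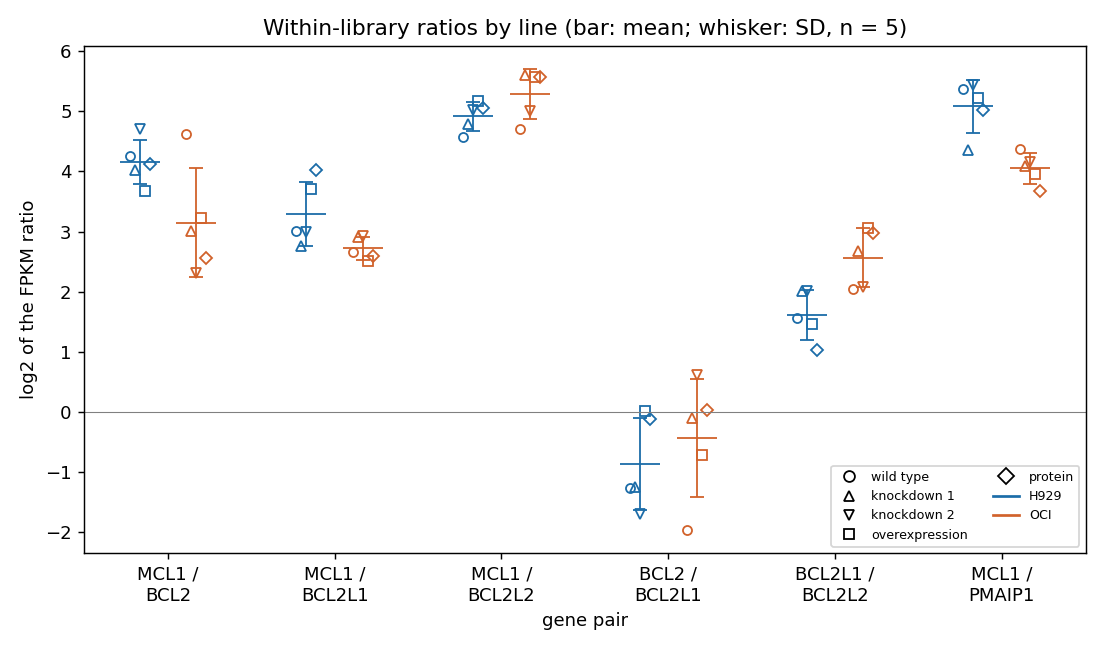
Ratios within each library on the log2 scale (vertical axis) for 6 gene pairs (horizontal axis), H929 in blue and OCI in orange, with a symbol for each manipulation and a bar and whisker for the mean and SD of 5 libraries. OCI wild type (circle) sits high among the OCI libraries for MCL1 to BCL2, at 4.63 on this scale, and the lines do not overlap for BCL2L1 to BCL2L2.

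The partners and opponents of the members were described from lists. Of 8 BH3-only genes, whose products bind the members' groove, 7 were tested, and in the protein comparison 6 were higher than wild type in both lines with a median log2 difference of 1.09, where the median of all genes was 0.14 and 36.7% of genes were higher in both lines. None passed the limma test. BBC3, encoding PUMA, differed by 3.16 ± 0.64 (limma adjusted p of 0.108) and BMF by 2.42 ± 0.38 (0.0989 by limma). All 4 genes of this list that limma called between lines were higher in OCI, where 7.6% of all genes were called higher: BIK (2.54 ± 0.22), BCL2L11 (1.09 ± 0.30), BMF (0.88 ± 0.24) and PMAIP1 (0.82 ± 0.19). BIK, at 0.122 to 0.759 FPKM in H929 and 3.92 to 8.70 FPKM in OCI, passed the filter on low values only through OCI, and its difference was 4.12 with a pseudocount of 0.1. On leaving out a library, the call of PMAIP1 was lost in 5 of 10 cases and those of BCL2L11 and BMF in 9.

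BAX and BAK1, the pore-forming effectors, were abundant, at 102 to 214 FPKM for BAX and 54.7 to 140.1 FPKM for BAK1, and neither was called in any comparison. BOK, the third effector, did not pass 0.0434 FPKM. BCL2L12 and BCL2L13, the tested genes of 5 other family members, were not called either.

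**Figure D4:**
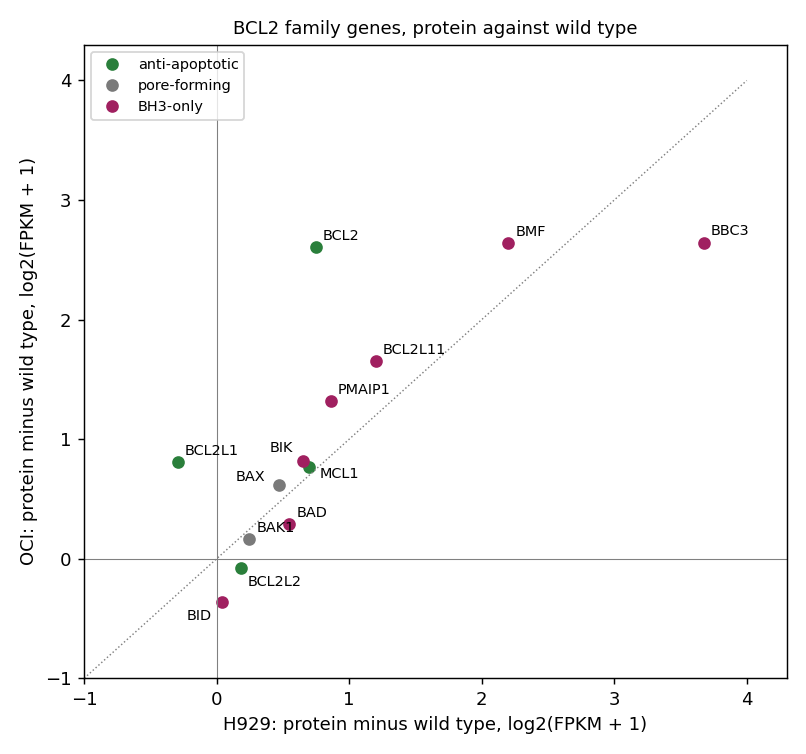
Difference between protein and wild type in log2(FPKM + 1) in H929 (horizontal axis) and OCI (vertical axis) for the tested BCL2 family genes, each point 1 gene from single libraries without an error bar. BCL2 (0.75 in H929, 2.61 in OCI) lies far above the dotted line of equal difference and MCL1 (0.69, 0.77) close to it.

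Proteins that control the life of MCL1 after translation were measured only as mRNA here. Of 11 such genes 10 were tested. FBXW7, part of a ubiquitin ligase for MCL1, differed by 0.85 ± 0.27 between protein and wild type without being called, and the list had a median of 0.09. USP24 was the only gene of the list called between lines, with a difference of -1.61 ± 0.26 (limma adjusted p of 0.00392) that stayed called on leaving out each library.

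IL6 signalling through STAT3 is known to drive MCL1 and BCL2L1 transcription in myeloma. Of 11 tested genes of that list, 7 were higher in both lines after protein, with a median of 0.57, and none was called. Without H929 protein the median of this list was 0.15. PIM1, PIM2 and IL6ST, the first encoding a kinase induced by STAT proteins, differed by 3.06 ± 0.67, 1.72 ± 0.31 and 1.36 ± 0.37. JAK1, a kinase of this pathway, was called by limma between lines, with an OCI minus H929 difference of -1.10 and the call lost in 2 of 10 cases on leaving out a library.

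NF-kB is known to act on BCL2A1 and BCL2L1 transcription. Of 17 tested pathway genes, 12 were higher in both lines after protein, with a median of 0.88, and limma called TNFAIP3, encoding the inhibitor A20, at 3.02 ± 0.31, a call lost in 6 of 10 cases on leaving out a library. BCL2A1 itself was listed at 0 in the H929 protein library and stood at 0.274 FPKM in the OCI one. Between lines, the adaptors TRAF2, at 0.72, and TRAF3, at -0.95 (OCI minus H929), were called by limma. The call of TRAF3 held on leaving out each library and that of TRAF2 was lost in 3 cases.

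Inhibitors of apoptosis and caspases act downstream of the mitochondrion or beside it. CFLAR, encoding the caspase-8 regulator FLIP, differed by 2.22 ± 0.41 after protein without being called (limma adjusted p of 0.108), among 5 tested genes of 8 with a median of 0.23. Of 10 apoptosome and caspase genes none was called after protein, with a median of 0.30. After protein, BBC3, BMF, PIM1, PIM2, IL6ST, CFLAR and HK2 were called by limma when OCI knockdown 2 was left out, as were 442 genes in all, none of them a member. Of 12 tested mitochondrial partners none was called in any comparison, and after protein HK2, a hexokinase bound to the outer membrane, was at -1.61 ± 0.39 and BNIP3L, a mitophagy receptor, at 1.24 ± 0.41.

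The genes whose profiles over the 10 libraries lay nearest to those of the tested members were named by the root mean square difference of log2(FPKM + 1) after each gene's own mean was taken off, without a test. For BCL2 these were CIITA at 0.293, ZFAND3 at 0.332 and CBY1 at 0.337, against a spread of BCL2 itself of 0.846. For MCL1, whose own spread was 0.266, they were ARRDC3-AS1 at 0.0930, RRAGC at 0.0983 and CMC1 at 0.104. RABGGTA (0.0892) and SYMPK (0.0968) lay nearest to BCL2L1, and DUSP8P5 (0.115), SMG1P5 (0.119) and DPY19L4 (0.130) nearest to BCL2L2. ARRDC3-AS1 is antisense to another gene, and DUSP8P5 and SMG1P5 are pseudogenes whose reads can be shared with near-identical copies, so their profiles are uncertain.

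CIITA, the transactivator of MHC class II genes, is also one of 8 mature B cell markers. That list summed to between 11.2 and 25.7 FPKM in H929. In OCI it summed to 19.7 FPKM in wild type, 31.3 and 43.4 in knockdowns 1 and 2, 23.3 in overexpression and 37.2 in protein. Knockdown 2 and protein were thus the highest OCI libraries for the list as for BCL2. This likeness is partly built in, because CIITA was named for its nearness to BCL2. CIITA and BACH2 made up most of the sum, and BACH2 was also highest in these libraries. PAX5 went the other way, at 4.36 FPKM in OCI wild type, 1.22 in knockdown 2 and 2.20 in protein. MS4A1, which encodes CD20, did not pass 0.128 FPKM. The part of this list in the BCL2 values was not tested. In RNA from whole cultures, a change in which cells were present and a change in RNA per cell cannot be told apart.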

How the data were processed

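Poly(A) RNA was sequenced as paired ends, per the labels' protocols, and the authors deposited 1 table of FPKM values, with no read counts used here. Per the submitters' processing notes the tools were HISAT2 2.0, StringTie 1.3.0 and Bowtie 0.12.2, in roles that are not given. These notes name build mm8 whereas the identifiers are human Ensembl identifiers, so no coordinate was taken from the study. Columns were matched to libraries by name, and those of wild type carry a suffix, ZY, whose meaning is unknown here. Strand use and the handling of shared reads are not given in the sources used here. Absolute depth is unknown, so no counting intervals are given.

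The members and gene lists were chosen with earlier results of these data known. All 12872 genes whose mean reached 1 FPKM were tested as log2(FPKM + 1) by limma 3.58.1 (R 4.3.3, variance trend) in an additive model of line and manipulation (5 residual degrees of freedom), or 8 group means (2) for differences between lines. Two-sided p-values were Benjamini-Hochberg adjusted over all tested genes, with a threshold of 0.05. A gene called passed it. FPKM ratios were compared between lines by exact permutation tests that list every split, checked on random numbers against scipy 1.17.1. Named genes are the members, AIMP1, list genes called or with the largest differences of the same sign in both lines, and 3 nearest profiles per member. Some genes that this rule names are left out of the text. The tests were run on simulated data first. The alternatives are given in the closing section. The knockdown numbers 1 and 2 were checked for pairing.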

Additional observations from a re-analysis of the deposited data

How the results depend on the processing

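No member was called under any alternative in any comparison. Alternatives were a pseudocount of 0.1, no filter, a filter at a mean of 5 FPKM (which leaves BCL2L2 without a value), median centring, quantile normalization, no trend, 8 group means, no covariate, leaving out each library, a replicate block and, chosen after seeing the data, leaving out OCI knockdown 1 and OCI protein together. Differences between lines in an effect could be fitted on leaving out a library only where it was a knockdown library.

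Small differences changed sign, and the cause was not tested. BCL2L2 between protein and wild type was -0.093 with median centring and -0.116 with quantile normalization, and ran from -0.058 to 0.16 on leaving out each library. With quantile normalization, BCL2L1 between protein and the mean of knockdown and overexpression was -0.061, the difference between lines in the knockdown effect of BCL2L2 was -0.096 and that in the protein effect of MCL1 was -0.032. Without OCI knockdown 1 and OCI protein, BCL2L1 was -0.18 against wild type and -0.33 against the mean. Leaving out each library gave BCL2L1 ranges of -0.22 to 0.74 for protein, -0.33 to 0.63 for protein against the mean, -0.054 to 0.36 for knockdown and -0.23 to 0.34 for overexpression, and a BCL2L2 range of -0.30 to 0.33 for the difference in knockdown effect. No other member difference changed sign under these alternatives.

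Both called ratios kept their size and direction but not their side of the threshold. With labels permuted within manipulations only the test changes. The log2 differences stayed at 0.95 for BCL2L1 to BCL2L2 and -1.03 for MCL1 to PMAIP1, and the MCL1 share at -6.83 percentage points. Both ratios had the smallest exact permutation p that the 48 arrangements can give (0.0417). Without OCI knockdown 1 and OCI protein the differences were 0.77 and -0.92 for the ratios and -6.44 percentage points for the share. Leaving out each library gave 0.80 to 1.08 for BCL2L1 to BCL2L2, -1.21 to -0.94 for MCL1 to PMAIP1, -7.90 to -5.92 percentage points for the MCL1 share, -1.38 to -0.80 for MCL1 to BCL2 and -0.71 to -0.40 for MCL1 to BCL2L1.

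The knockdown numbers did not pair the libraries (r = 0.0757 over 12872 genes between the deviations of same-numbered libraries). With them as a replicate block, no member was called, and 1 gene was called for overexpression, 7 for protein and 4 for protein against the mean, against 0, 2 and 0 without it. With the 5 matched libraries of the lines as a replicate block, sign flips gave the ratio differences of 0.95 and -1.03 an exact p of 0.0625, the smallest they can give, so the block could not make a call.

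The number of genes called ran from 0 to 11 for knockdown, 0 to 17 for overexpression, 0 to 35 for protein (0 to 442 on leaving out each library, with 442 without OCI knockdown 2), 0 to 75 for protein against the mean and 787 to 1678 between lines. For differences between lines in an effect it reached 633, 1289 and 1425 without a filter on low values. The median of the BH3-only genes after protein was 1.45 with a pseudocount of 0.1, and that of the IL6 and STAT3 genes was 0.15 without H929 protein. BCL2A1 was listed at 0 in 4 libraries. These were OCI wild type, the deepest, and, at 73.2%, 27.7% and 27.5% of its depth, OCI knockdown 1, OCI overexpression and H929 protein. The part of depth in these zeros was not tested.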
